A study of Schizosaccharomyces pombe with 14 samples.

Results

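Fission yeast cells without maf1 were compared with wild-type cells after 4 h in medium without phosphate, over all genes counted. The comparison takes 6 of the 42 libraries of the series, chosen by strain and time from their labels: 3 of a wild type of mating type h- and 3 of an h+ strain in which a natMX cassette, a nourseothricin-resistance marker, replaces maf1. Both strains had been in ePMGT medium without phosphate for 4 h, a stage that the labels describe as limited growth, and no other allele or agent is listed for either. Poly(A)+ RNA was sequenced in pairs on a NovaSeq instrument from stranded TruSeq libraries. Of 6988 genes counted, 6521 had enough counts to be tested. Each genotype is 1 lab strain, and the strains differ in mating type as well as in maf1, so the effects of the deletion and of mating type cannot be told apart.

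RNA polymerase III transcribes tRNAs, 5S rRNA, the U6 spliceosomal RNA and a few other short RNAs. Maf1 binds the polymerase and represses it when nutrients run short or cells are stressed, as shown in budding yeast and in animals. Finished tRNAs carry no poly(A) tail, so poly(A)-selected libraries hold few tRNA reads. Nuclear surveillance in yeasts adds short tails to faulty transcripts, tRNA precursors among them. Cells that run out of phosphate induce secreted acid phosphatase and phosphate transporters and slow the making of ribosomes. The series, by its title, asks how Maf1 bears on survival in long phosphate starvation and on aberrant tRNA production.

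The wild-type libraries at 4 h held 21283290, 18232580 and 19132167 counts and the deletion libraries 36066314, 34001974 and 33249827, so every deletion library was deeper than every wild-type library. Differences between replicates exceeded counting error in both strains, and the chi-square divided by its degrees of freedom was 2.79 to 4.45 between wild-type libraries and 14.3 to 28.9 between deletion libraries. Levels are CPM, each gene's share of its library's counts scaled to a fixed total, after TMM scaling. A gene was called higher or lower when its adjusted p in edgeR's quasi-likelihood test was under 0.05 and the strains differed at least 2-fold. It is not said whether the 3 replicate experiments were separate cultures, so the p-values measure the spread between libraries. That spread was estimated within the groups of all 42 libraries of the series, not from the 6 at 4 h alone. It may be too small for genes that varied more between the deletion libraries at 4 h.

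The deleted gene followed the labels. The maf1 transcript stood at 82.3, 79.6 and 73.6 CPM in wild-type cells and at 1.77, 2.72 and 2.50 CPM in deletion cells. The groups were far apart, with a log2 difference of -5.08 (SE 0.10, adjusted p = 1.54e-30). The deletion libraries still held 248 counts at the locus, against 4828 in the wild type. At 0 h, in rich medium, the gap was smaller, with 22.2 ± 1.11 CPM in the wild type and 6.78 ± 0.40 CPM in the deletion (SD, n = 3; log2 -1.71, SE 0.09), so the libraries labelled as the deletion at 0 h held more maf1 reads than those at 4 h. Each statement on 0 h rests on those libraries, and what these reads come from was not tested.

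At 4 h, 149 genes were higher in the deletion, 2.28% of those tested, and 371 were lower, 5.69%, which makes 7.97% in all. Many of them were barely expressed: 48 of the higher and 52 of the lower genes stayed under 1 CPM even in the strain where they were higher. Among the higher genes, 70 reached 10 CPM in the deletion, 61 of them protein-coding. Among the lower genes, 142 reached 10 CPM in the wild type, 97 of them protein-coding. The median log2 difference over all genes tested was 0.01. The 3 libraries of one strain all lay above the 3 of the other for 4640 genes, 71.2% of those tested, so a gap between the groups is common here and says little without its size. With 3 libraries against 3, an exact permutation test of a single value cannot go below p = 0.1.

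**Figure D1:**
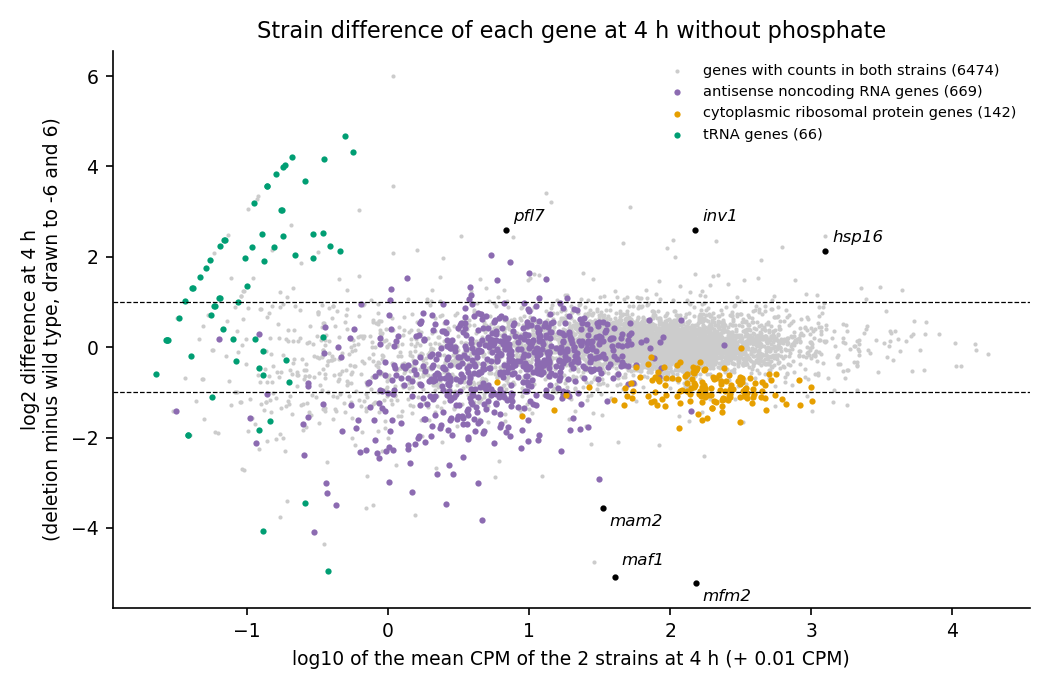
Log2 difference between strains at 4 h (deletion minus wild type) against the log10 of the mean CPM, for the 6474 tested genes with counts in both strains; dashed lines mark a 2-fold difference, and 1 gene beyond 6 is drawn at the edge. The tRNA genes lie at the left with few counts and mostly above 0, the ribosomal protein genes lie to the right and below 0, and many antisense noncoding RNA genes lie below 0.

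Few reads fell on tRNA genes in either strain, and more of them in the deletion. Reads from the 171 nuclear tRNA genes summed to 132, 119 and 113 counts in the wild-type libraries and to 607, 665 and 567 in the deletion libraries. On the CPM scale the sums were 5.99, 6.25 and 5.56 against 16.5, 18.8 and 16.3. All 3 deletion libraries lay above all 3 wild-type libraries, and the mean was 2.90 times higher in the deletion (17.2 ± 1.39 against 5.93 ± 0.35 CPM, SD, n = 3; exact two-sided permutation p = 0.1, the smallest the design allows, and 0.144 adjusted over 13 summed sets). Scaling by library size alone gave a ratio of 2.87. These reads were 0.000621% of the wild-type counts and 0.00178% of the deletion counts.

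At 0 h, in rich medium, the order was the opposite. The nuclear tRNA genes then summed to 13.0 ± 1.60 CPM in the wild type and to 2.70 ± 0.472 CPM in the deletion (SD, n = 3), 4.83 times lower, with no overlap (exact two-sided permutation p = 0.1). Between 0 h and 4 h the sum thus went down in the wild type and up in the deletion.

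Gene by gene, 37 of the 99 tRNA genes tested were higher in the deletion and 4 were lower, 41.4% called against 7.97% of all genes. Of all 171 nuclear tRNA genes, 86 had a higher mean in the deletion, 31 a lower mean and 54 no count in either strain at 4 h. The median fitted log2 difference over the 99 genes tested was 1.97, and 1.34 when the genes with no count in one strain were set to their bound and those with no bound were left out. A gene passed the count filter if it was detected in any group of the series, so tested genes are not a sample of all tRNA genes. Near-identical tRNA copies can share reads, and how such reads were assigned is not given in the sources used here. A value may therefore belong to a family of copies rather than to 1 locus. The 25 mitochondrial tRNA genes had no count in any of these libraries.

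Grouped by amino acid, all 20 sums had a higher mean in the deletion, and for 16 of them the libraries did not overlap, beside 71.2% of all single genes tested. The ratio was largest for cysteine tRNAs, with 3 counts in the wild type and 103 in the deletion (19.6 times on the CPM scale), followed by arginine (5 and 124 counts, 14.02 times), histidine (5 and 83 counts, 9.53 times) and tryptophan (4 and 59 counts, 8.47 times). Glutamic acid tRNAs had the smallest, 1.01 times, from 24 and 42 counts. Serine, proline and leucine tRNAs overlapped between strains as well, at 1.26, 1.77 and 2.07 times. These ratios rest on few reads in the wild type.

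Most of the cysteine reads came from SPATRNACYS.01, which had 1, 1 and 0 counts in the wild type and 42, 36 and 23 in the deletion. Every deletion library was far above the wild type, a ratio of 29.0 with an exact counting interval of 7.83 to 243 (95%). SPBTRNAGLY.09, a glycine tRNA gene, had no count in the wild type and 19, 14 and 34 in the deletion, at least 12.8-fold higher when 3 counts over the wild-type group are taken as the limit of a count of 0. SPCTRNAARG.10 (arginine), SPBTRNAASN.01 (asparagine) and SPBTRNATHR.06 (threonine) also had no count in the wild type, against 43, 40 and 39 in the deletion. By the same limit they were at least 8.24-fold, 7.66-fold and 7.47-fold higher. The 4 genes that went the other way had few reads too. SPBTRNAALA.07, an alanine tRNA gene, had 16, 13 and 15 counts in the wild type and 1, 0 and 1 in the deletion, and SPBTRNAPRO.04 (proline) had 28 against 4 in all. SPBTRNASER.05 (serine) had 14 against 1 and SPATRNALYS.01 (lysine) 11 against 5.

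Other RNAs of polymerase III, chosen here after their values were seen, did not all behave alike. The 36 5S rRNA genes summed to 8.13 ± 0.583 CPM in the wild type and 7.48 ± 0.434 CPM in the deletion, and the libraries overlapped (exact two-sided permutation p = 0.2, n = 3). Single 5S genes went both ways: 20 had a higher mean in the deletion, 11 a lower one and 5 no count in either strain. U6 (snu6) had 2, 2 and 3 counts in the wild type and 19, 20 and 15 in the deletion and was called higher (log2 2.1, SE 0.74, adjusted p = 0.0134). The 7SL RNA of the signal recognition particle (srp7) had 22, 14 and 19 against 52, 72 and 75 counts, 0.889 ± 0.137 against 1.87 ± 0.397 CPM, and was called higher by 1.06 (SE 0.41, adjusted p = 0.0246). The spliceosomal RNAs U1, U2, U4 and U5, which polymerase II makes, summed to 2.0 ± 0.568 and 1.45 ± 0.356 CPM and overlapped.

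Ribosomal RNA, which poly(A) selection is meant to remove, moved with the strains as well. The 18S, 5.8S and 28S genes summed to 19.8, 20.5 and 8.80 CPM in wild-type cells at 4 h and to 94.98, 141 and 123 CPM in the deletion, 7.30 times higher with no overlap. At 0 h the same sum was 14.9 ± 0.14 CPM in the wild type and 343 ± 55.6 CPM in the deletion (SD, n = 3), 23.1 times higher, while the tRNA sum was lower in the deletion. Most reads of the rRNA sum at 4 h came from a 28S entry, SPRRNA.49 (669 and 9938 counts), and an 18S entry, SPRRNA.46 (140 and 2590). The 5.8S entry SPRRNA.52 was not called (log2 0.58, SE 0.36, adjusted p = 0.152). Of the 11 genes summed, 5 had a higher mean in the deletion at 4 h and 4 a lower one. The part of carried-over stable RNA in the tRNA difference at 4 h was not tested.

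**Figure D2:**
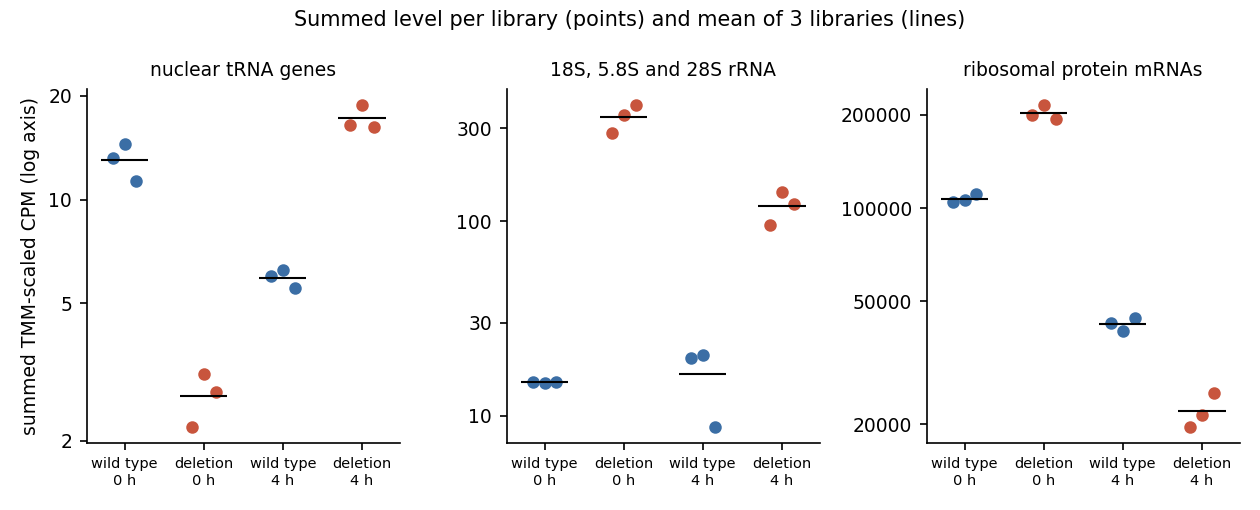
Summed TMM-scaled CPM (log axes) of the nuclear tRNA genes, of 18S, 5.8S and 28S rRNA and of the ribosomal protein genes in each library at 0 and 4 h; points are libraries and lines are means of 3. The order of the strains turns between 0 and 4 h for tRNA and for ribosomal protein mRNAs, but not for rRNA.

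The genes that encode the polymerase III machinery were not called in either direction. None of the 21 tested passed the 2-fold threshold (edgeR, also 0 with DESeq2), where 7.97% of all genes were called. Their median log2 difference was 0.07. At an unadjusted p under 0.05 without a minimum fold, 8 were higher and 8 lower, beside 2270 and 2177 of all 6521 genes tested. The lowest was rpc1, the largest subunit, at 81.1, 80.0 and 85.7 CPM in the wild type and 59.3, 52.0 and 58.0 CPM in the deletion. Its libraries did not overlap (log2 -0.54, SE 0.05, adjusted p = 7.17e-12). The highest was rpc11, which encodes a small subunit with a part in termination and RNA cleavage, at 0.52 (SE 0.08). Subunits rpc2 and rpc37 stood at -0.31 and -0.34, rpc10 and rpc25 at 0.29 and 0.27, and the other 7 subunits lay between -0.25 (rpc31) and 0.14 (rpc53). The TFIIIB subunits brf1 and bdp1, which place the polymerase at the gene, differed by 0.19 and 0.14 and the TATA-binding protein tbp1 by -0.04. The TFIIIC subunits sfc1, sfc3, sfc4, sfc6 and sfc9, which bind inside tRNA genes, lay between -0.16 and 0.22. Another listed TFIIIC gene, sfc7, had no count in these libraries and was not tested.

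Ribosomal protein mRNAs were lower in the deletion as a group. Their 142 genes summed to 42582, 39934 and 44216 CPM in the wild type and 19665, 21447 and 25190 CPM in the deletion. The groups did not overlap, and the means were 42244 ± 2161 and 22101 ± 2820 CPM (SD, n = 3; exact two-sided permutation p = 0.1), which is 4.43% against 2.28% of all counts. CPM values are shares of the RNA sequenced, so less of one kind of RNA per cell and more of the others cannot be told apart. All 142 genes had a lower mean in the deletion, and for 138 of them the libraries of the strains were apart, which also holds for 71.2% of all genes tested. The median log2 difference was -0.93, close to the 2-fold threshold, and 58 genes passed it and were called lower, with none higher, against 5.69% of all genes called lower. Without a minimum fold 141 passed in the lower direction, against 2084 of the 6521 genes tested.

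The most strongly lower member was rps2202, one of the genes for the small-subunit protein S15a. It stood at 174, 171 and 194 CPM in the wild type and 45.1, 46.4 and 65.0 CPM in the deletion (log2 -1.79, SE 0.08, adjusted p = 7.88e-20). Replicate 3 of the deletion was the highest of its group there and in the summed ribosomal proteins, and still lay well below the wild type. The genes rps2602 (S26), rpl44 (L28/L44) and rpl301 (L3) followed at -1.66, -1.62 and -1.56. Ribosomal protein paralogs can share reads, so the value of a single copy is less certain than the sum. The number called lower was 41 to 82 when 1 library was left out at a time.

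At 0 h the same genes lay on the other side of 0. They had then a median of 0.97, with 67 called higher and none lower, against 13.8% and 15.9% of all genes. At 8 h and 12 h the medians of the ribosomal protein genes were -0.10 and -0.37 with none called. In the wild type their sum was 107104 ± 3119 CPM at 0 h and in the deletion 202985 ± 10891 CPM (SD, n = 3). The change from 0 h to 4 h was therefore more negative in the deletion, and for 140 of the 142 genes that difference in change was called, against 14.8% of all genes.

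Few genes for factors that work with the ribosome were called. Of 42 translation factor genes, 32 were lower and 2 higher at an adjusted p under 0.05 with no minimum fold, with a median of -0.26. Over all 6521 genes tested, 2084 were lower and 2186 higher in this way. With the 2-fold threshold 3 of the 42 were called lower and none higher, a share near the 5.69% of all genes called lower. These were cpc2, a scaffold protein bound to the small subunit (1479, 1417 and 1487 against 497, 526 and 631 CPM; log2 -1.41, SE 0.06, adjusted p = 2.33e-19), and both tef102 and tef101, copies of the gene for elongation factor EF-1 alpha, at -1.29 and -1.09. In all 3 genes every deletion library lay below every wild-type library. Among 101 ribosome biogenesis genes only rlp7 passed the 2-fold threshold (log2 -1.06, SE 0.06), with a median of -0.23. At an adjusted p under 0.05 with no minimum fold, 69 were lower and 12 higher, against 2084 and 2186 of all 6521 genes tested. The ribosome-bound Hsp70 gene sks2 stood at 2558, 2508 and 2566 CPM against 1020, 1026 and 1097 CPM, a log2 difference of -1.28 (SE 0.05, adjusted p = 1.22e-21). No gene of 11 for RNA polymerase I (at an unadjusted p under 0.05, 3 higher and 5 lower), and none of 61 for tRNA processing and modification (19 and 19), was called by edgeR or DESeq2. Of all 6521 genes tested, 7.97% were called, and 2270 were higher and 2177 lower at an unadjusted p under 0.05.

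Of 8 genes of phosphate acquisition, 7 differed by less than 2-fold between the strains at 4 h. The secreted acid phosphatase gene pho1, the classic marker of phosphate starvation, stood at 14480, 14514 and 13378 CPM in the wild type and 15127, 15255 and 14393 CPM in the deletion. The libraries overlapped (log2 0.08, 95% interval -0.08 to 0.24, adjusted p = 0.399). The phosphate transporter pho84 stood at 3248, 3397 and 3185 against 4106, 4035 and 4079 CPM, with no overlap but a difference of only 0.31 (SE 0.07). The glycerophosphodiester transporter tgp1 differed by 0.28 and the 5'-nucleotidase gene SPAC1039.02 by 0.36. Another phosphate transporter gene, pho842, differed by -0.31, the activator pho7 by -0.29 and the kinase csk1 by -0.07. The 1 gene of 8 that was called, against 7.97% of all genes, was SPBPB2B2.06c, another extracellular 5'-nucleotidase gene. It stood at 574, 642 and 492 CPM in the wild type and 1457, 1204 and 1179 CPM in the deletion (log2 1.17, SE 0.14, adjusted p = 5.59e-09), with no overlap.

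The strains had differed in several of these genes at 0 h, before phosphate was withdrawn. Levels of pho1 were then 62.1 CPM for the wild type and 950.0 CPM for the deletion, pho84 at 209.7 and 960.1 CPM, SPAC1039.02 at 38.4 and 433 CPM and SPBPB2B2.06c at 0.111 and 14.6 CPM. At 0 h 4 of the 8 genes were called higher and 1, tgp1, lower in the deletion (47.8 and 13.0 CPM). Of all genes tested, 13.8% were higher and 15.9% lower at 0 h. The log2 difference at 4 h minus that at 0 h was -3.86 for pho1, -1.88 for pho84, -3.14 for SPAC1039.02, -5.75 for SPBPB2B2.06c and 2.16 for tgp1. Over all 8 genes, the difference in change was called more negative for 4, more positive for 1 and not called for 3. Of all genes, 30.0% were called. The 5 are the genes called at 0 h, and the 0 h difference is itself a part of the difference in change.

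Of the called genes with a symbol, at least 10 CPM and libraries that did not overlap, the 10 with the largest positive differences are given here. The invertase gene inv1, which lets cells use sucrose, was at 37.7, 41.8 and 48.2 CPM in the wild type and 354, 176 and 244 CPM in the deletion (log2 2.60, SE 0.17, adjusted p = 1.15e-15). The deletion libraries spread widely among themselves, and all lay far above the wild type. The flocculin gene pfl7, for a cell-surface adhesion protein, was at 1.54, 2.21 and 2.11 against 10.5, 12.6 and 11.9 CPM (log2 2.59, SE 0.20). The DNA damage-responsive gene ddr48 was at 432, 354 and 364 against 2644, 2152 and 1554 CPM (log2 2.47, SE 0.18). The others of the 10 were wwm3 (WW domain, 2.38), prl65 (tudor domain, 2.31), cum1 (Con-6 family, 2.20), hsp16 (2.13), the succinate-semialdehyde dehydrogenase gene ssd2 (1.997), the antisense RNA gene meu16 (1.64) and the cation-binding hry1 (1.62).

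Stress genes as lists were less uniform. Of 41 genes of the core stress response, which fission yeast turns on under many stresses, 6 were higher, 2 lower and 33 not called, with a median of 0.16. Over all genes, 2.28% were higher and 5.69% lower, and the lower share of the list is near that. The small heat shock gene hsp16 stood at 428, 496 and 476 CPM in the wild type and 2452, 1825 and 1853 CPM in the deletion. The metallothionein gene zym1 was at 405, 402 and 406 against 1449, 1010 and 923 CPM (log2 1.48, SE 0.14). The ferritin-related gene rds1 and the heat shock gene hsp9 were higher by 1.34 and 1.26, and the dehydrogenase genes tms1 and gut2 by 1.13 and 1.10. These last 2 and dak2 are named, after their values were seen, to complete the called members of the list. In the opposite direction mug14, an adducin-like gene, was at 303, 279 and 289 against 55.5, 63.0 and 46.2 CPM (log2 -2.40, SE 0.13, adjusted p = 8.04e-18), and the dihydroxyacetone kinase gene dak2 was lower by -1.12. Of 28 heat shock and chaperone genes 3 were higher (hsp16, and the glyoxalase-related hsp3101 and hsp3105 at 1.54 and 1.03) and 1, sks2, lower, with a median of -0.06. The call of hsp3105 was lost without wild-type library 1 (0.92) and without deletion library 1 (0.97). Among signalling genes cgs1, the regulatory subunit that restrains cAMP-dependent protein kinase, was the 1 called of 33, at 24.4, 26.1 and 21.3 against 61.5, 58.5 and 50.7 CPM (log2 1.25, SE 0.12). The lifespan gene ecl3 was higher by 1.26, the 1 called of 3 in its list.

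**Figure D3:**
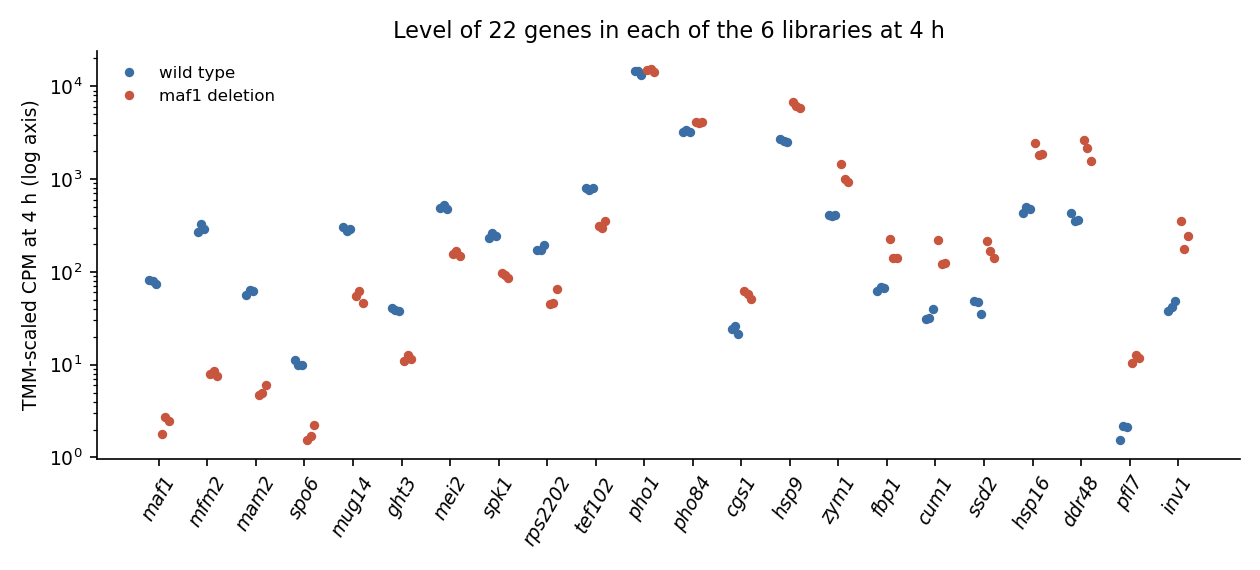
TMM-scaled CPM (log axis) of 22 genes in each of the 3 wild-type and 3 deletion libraries at 4 h, from genes lower in the deletion at the left to genes higher at the right. The libraries of pho1 overlap (13378 to 15255 CPM), and for the other genes drawn the 2 strains are apart, which the rule for naming some of them required.

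Sugar genes went both ways. Among 16 genes of hexose transport and glucose repression, inv1 and fbp1 were higher and 4 transporter genes were lower, with a median of -0.04. Of all genes tested, 2.28% were higher and 5.69% lower. The gluconeogenic gene fbp1 (fructose-1,6-bisphosphatase) was at 62.8, 68.5 and 67.6 CPM in the wild type and 225, 143 and 140.5 CPM in the deletion (log2 1.35, SE 0.13). The gluconate transporter ght3 was at 41.0, 39.0 and 37.9 against 11.0, 12.6 and 11.4 CPM (log2 -1.75, SE 0.12, adjusted p = 1.05e-14), and the high-affinity glucose transporter ght1 was lower by -1.47. Lower too were ght6 and ght7 (-2.29 and -1.18), both with at most 1.73 CPM in any library, and the libraries of ght7 overlapped. The call of ght7 was lost without wild-type library 1 (-0.73) and without deletion libraries 1 and 2 (-1.22 and -0.81). The peptide transporter ptr2 was at 30.6 ± 2.50 against 11.4 ± 1.21 CPM (log2 -1.42, SE 0.12). It was the 1 gene called of 24 for amino acid and nitrogen transport and catabolism, below the 7.97% of all genes.

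The strains differ in mating type, and 12 genes that mark the types were tested: 6 were lower in the deletion and none higher, with a median of -0.91. Of all genes tested, 5.69% were lower and 2.28% higher. h- cells make M-factor, and its precursor gene mfm2 stood at 269.9, 326 and 291 CPM in the h- wild type and at 8.00, 8.46 and 7.50 CPM in the h+ deletion (log2 -5.21, SE 0.18, adjusted p = 1.39e-22). The h- receptor gene for P-factor, mam2, was at 56.7, 63.9 and 62.8 against 4.68, 4.92 and 6.06 CPM (log2 -3.55, SE 0.23). The M-factor transporter mam1 and the precursor genes mfm1 and mfm3 were lower by -1.52, -1.49 and -1.30 (mfm3 was not called without wild-type library 3, at -1.15), while mam3 (-0.71) and sxa2 (0.21), 2 further h- genes, were not called. No h+ gene was called higher in the h+ strain. Not called were map2 (P-factor, -0.54), map3 (M-factor receptor, 0.43), map4 (-0.19) and sxa1 (-0.09), and map1, a transcription factor gene for h+ functions, was called lower, by -1.12. At 0 h map2 was called lower in the deletion, by -4.20 (108 and 5.88 CPM), and at 8 and 12 h it was called higher, by 1.58 and 1.47. The 4 mating-type locus genes on the list, mat1-Mc, mat1-Mi, mat3-Mc and mat3-Mi, had 1 count in all in these 6 libraries and were not tested.

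Some genes that act in both mating types were called, most of them lower. The meiotic regulator mei2, an RNA-binding protein that starts meiosis, was at 489, 527 and 471 CPM in the wild type and 154, 167 and 148 CPM in the deletion (log2 -1.66, SE 0.10, adjusted p = 2.72e-16). The pheromone-pathway MAP kinase gene spk1 was at 233, 260 and 245 against 96.3, 91.6 and 84.9 CPM (log2 -1.43, SE 0.09), and the Ras activator gene ste6 was lower by -1.502. In both, the libraries of the strains were well apart. With mei3, at under 1 CPM, 4 of 24 genes of sexual differentiation and meiosis entry were lower and 1, cgs1, higher, and 19 were not called, with a median of -0.30. Over all genes 5.69% were lower and 2.28% higher. The call of mei3 was lost without wild-type libraries 1 and 3 (-0.961 and -1.003) or without deletion libraries 2 and 3 (-0.97 and -0.98). The sporulation kinase regulator spo6 was at 11.3, 9.92 and 10.03 against 1.55, 1.70 and 2.21 CPM (log2 -2.52, SE 0.35), and omt3, a meiosis-specific noncoding RNA, was at 68.7 ± 2.78 against 16.1 ± 1.23 CPM (log2 -2.09, SE 0.11). Of 112 genes named for meiotic upregulation, 7 were lower and 1 higher, with a median of 0.03 against 0.01 over all genes tested. The lower share is near the 5.69% of all genes. The 1 higher became 3 without wild-type library 1 and without deletion library 3.

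Antisense noncoding RNA genes, which lie on the strand opposite another gene, gave the largest number of lower calls of any class of gene. Of 670 antisense noncoding RNA genes tested, 150 were lower and 13 higher, 24.3% called against 7.97% of all genes, with a median of -0.32. Of 594 other noncoding RNA genes, 69 were lower and 12 higher (13.6% called, median -0.25), and of 5048 protein-coding genes 131 were lower and 74 higher (4.06% called, median 0.04). Small nucleolar RNA (snoRNA) genes had a similar share, with 10 lower and 1 higher of 43 tested (25.6% called, median -0.42). A high share of lower calls was thus not particular to antisense genes. The summed level of the antisense genes was 8616 ± 83.0 CPM in the wild type and 7517 ± 93.7 CPM in the deletion (SD, n = 3). For 94 of the lower antisense genes the gene on the other strand was tested too, and it was not called in 90, lower in 3 and higher in 1, with a median of -0.02. The antisense RNA at hrp1, hrp1-antisense-1, chosen here after the values were seen, was at 55.6 CPM in the wild type and 7.35 CPM in the deletion (log2 -2.92), while hrp1 itself differed by -0.14. The antisense RNA at the autophagy-related gene atg22, chosen in the same way, differed by -3.82 (8.63 and 0.609 CPM) and atg22 by 0.43. The strand setting used for counting is not given in the sources used here, so reads of a gene and of its antisense partner may not be fully separated. At 0 h 264 antisense genes were lower and 82 higher, at 8 h 143 and 10, and at 12 h 117 and 20. Of all genes tested, 15.9% were lower and 13.8% higher at 0 h. Those shares were 4.92% and 1.89% at 8 h and 4.6% and 3.14% at 12 h.

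Of 84 subtelomeric protein-coding genes tested, of 109 listed, 11 were higher, against 2.28% of all genes, and 5 lower (3 without wild-type library 1), near the 5.69% of all genes. The RecQ-type helicase gene tlh2, of which near-identical copies exist, had 8 counts in the wild type and 117 in the deletion (log2 3.03, SE 0.75). The arylsulfatase gene SPBPB10D8.02c was at 1.68, 2.99 and 2.51 against 12.6, 13.9 and 12.2 CPM (log2 2.44, SE 0.20), and the cysteine transporter gene SPBPB10D8.01 at 11.7, 11.0 and 12.5 against 34.9, 38.4 and 36.9 CPM (log2 1.64, SE 0.10). Both were also called higher at 0, 8 and 12 h. Of the iron genes fio1, an iron-transport oxidase, was higher by 1.10, and the heme uptake genes str3 and shu1 were lower by -1.03 and -1.51, at 6.47 and 1.81 CPM in the wild type. That made 3 called of 23 iron genes, against 7.97% of all genes. The calls of fio1 without deletion library 3 (0.98) and of str3 without wild-type library 3 or deletion library 1 (-0.92 and -0.76) were lost. The chitin synthase-like gene chs2 was lower by -1.19, at 80.1 ± 3.36 against 35.2 ± 1.13 CPM. It was the 1 called of 25 cell wall genes and of 53 mitosis and cell separation genes, both below the 7.97% of all genes.

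**Figure D4:**
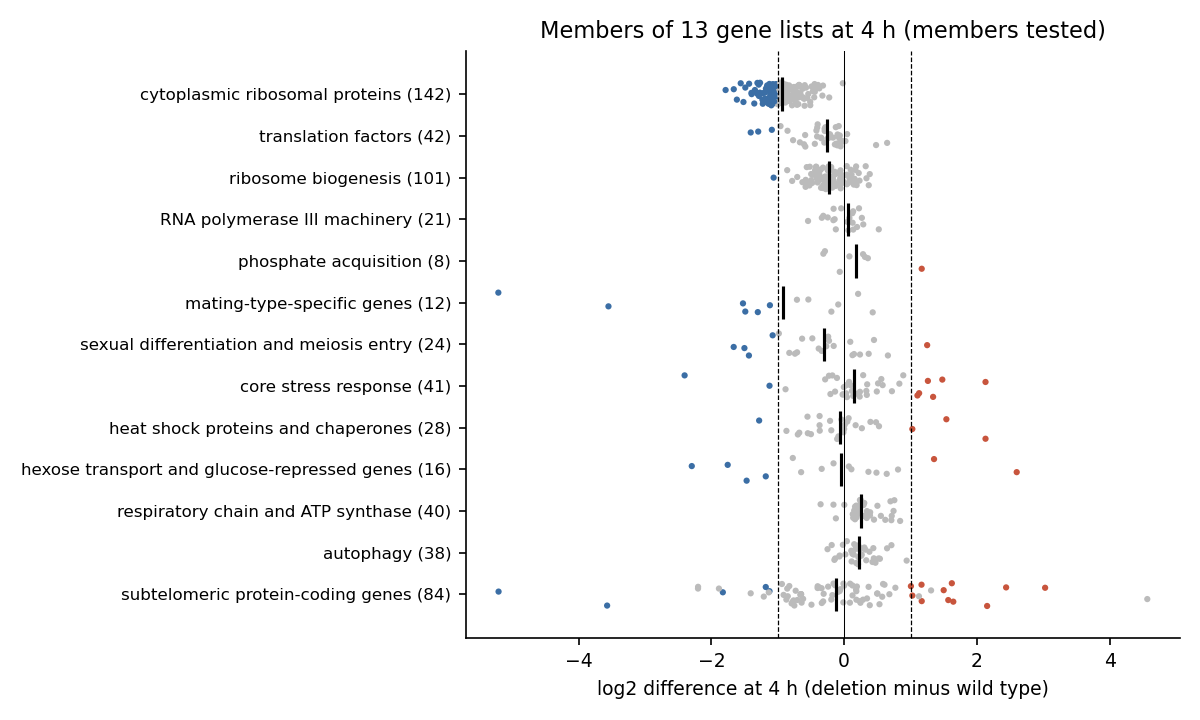
Log2 difference at 4 h (deletion minus wild type) of each tested member of 13 gene lists; red points were called higher, blue points lower, grey points not called, black bars are medians and dashed lines mark 2-fold. The ribosomal protein genes all lie below 0 with a median of -0.93, and the respiratory and autophagy genes lie mostly just above 0 with none called.

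Several lists shifted by less than the 2-fold threshold. Of 40 genes of the respiratory chain and ATP synthase none was called, while 36 were higher and 3 lower at an unadjusted p under 0.05, with a median of 0.25. Of 38 autophagy genes none was called, 28 were higher and 5 lower at that level, and the median was 0.22. Over all genes 2270 were higher and 2177 lower at that level. Also with no call by edgeR or DESeq2 were the 10 histone genes (7 higher and 1 lower at an unadjusted p under 0.05, median 0.27), 50 mitochondrial ribosomal protein genes (25 and 5, median 0.14), 10 genes of inositol pyrophosphate and polyphosphate metabolism (7 and 2, median 0.16), 34 proteasome genes (13 and 11), 69 amino acid biosynthesis genes (21 and 21), 58 genes of DNA replication (20 and 21), 19 of glycolysis and fermentation (8 and 3), 13 of the TCA cycle (6 and 3), 18 of phospholipid metabolism (9 and 5), 16 regulators of 3' processing and termination (8 and 5) and 9 thiamine-repressed genes (3 and 3).

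Genes called at 4 h were often called in the same direction at 8 and 12 h and rarely in the opposite one, while at 0 h both directions were common. At 0 h 901 genes were higher and 1036 lower in the deletion (13.8% and 15.9% of those tested), at 8 h 123 and 321 (1.89% and 4.92%) and at 12 h 205 and 300 (3.14% and 4.6%). None of these contrasts shares libraries with that at 4 h. Of the 149 genes higher at 4 h, 38 were higher at 0 h (25.5% of the 4 h list and 4.22% of the 0 h list) and 55 were lower there (36.9% of the 4 h list). At 8 h 67 of them were higher (44.97% and 54.5%) and at 12 h 78 (52.3% and 38.0%), with 1 in the opposite direction at each. Of the 371 lower genes, 149 were lower at 0 h (40.2% and 14.4%) and 57 higher, 189 were lower at 8 h (50.9% and 58.9%) and 147 at 12 h (39.6% and 49.0%). Called in the same direction at 4, 8 and 12 h were 65 higher and 136 lower genes. The tRNA genes continued in the direction seen at 4 h, with 51 higher and 8 lower at 8 h and 52 and 5 at 12 h, against none higher and 40 lower at 0 h.

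**Figure D5:**
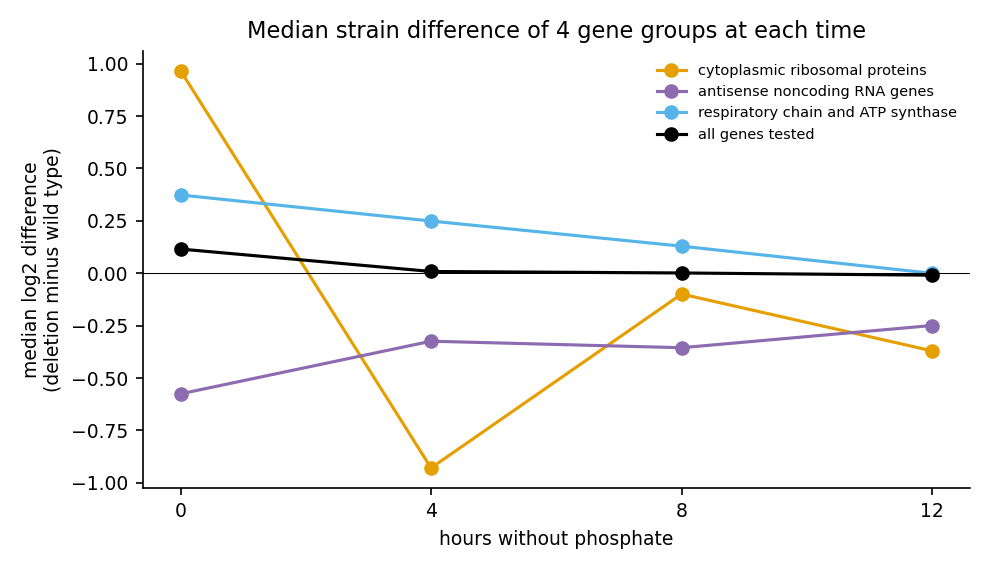
Median log2 difference between strains (deletion minus wild type) of 4 gene groups at 0, 4, 8 and 12 h. The ribosomal protein genes go from 0.97 at 0 h to -0.93 at 4 h and lie near 0 at 8 h, while the other groups keep their side of 0 or lie close to it.

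The change from 0 h to 4 h itself differed between strains for 1954 genes, 30.0% of those tested: 986 had a more positive change in the deletion (15.1%) and 968 a more negative one (14.8%). With scaling by library size alone the split was 1277 and 684, and the median of all genes moved by 0.26 on the log2 scale. The 4 h libraries enter both this contrast and the strain difference at 4 h. Among genes with a symbol that at 4 h had at least 10 CPM and libraries that did not overlap, the 5 with the most positive difference in change were all higher in the wild type at 0 h. The O-methyltransferase gene cmt2 had at 0 h a level of 1471 CPM in wild-type and 2.70 CPM in deletion cells, and at 4 h 39.4 ± 6.20 and 22.2 ± 3.31 CPM (difference in change 8.27, SE 0.24, adjusted p = 1.13e-26). For fbp1 the 0 h levels were 351 and 4.15 CPM (7.76), and the same held for mug147, the kelch-repeat gene mde6 and the galactose gene gal10 (5.35, 5.09 and 4.61). The 5 most negative under the same limits were rps1401, a gene for small-subunit protein S14 (-4.61), meu16 (-4.39), ecl3 (-4.12), the aldehyde dehydrogenase gene atd1 (-4.09) and ptr2 (-3.95). All of these were higher in the deletion at 0 h, rps1401 at 39.5 CPM in the wild type and 418 CPM in the deletion.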

How the data were processed

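Per the labels, poly(A)+ RNA of wild-type and maf1-deleted fission yeast was sequenced at 7 times with 3 libraries a group, 42 in all. A single table of gene counts was deposited by the authors. Per the submitters' processing notes HISAT2 2.1.0, SAMtools, HTSeq 0.10.0 and DESeq2 were used with build ASM294v2. The annotation version, how strand was used in counting and how multi-mapping reads were handled are not given in the sources used here. The deposited table has 0.5 in place of 0 (19110 of 293538 values, 6.51%), and its values, taken here to be expected counts, were rounded, with 0.5 taken as 0. Of 6988 identifiers, 4750 took a symbol from other tables that the authors deposited and 102 from RefSeq's ASM294v3 annotation, used for names alone, and 2136 had no symbol. Products came from the authors' tables, also for genes without a symbol. No count column was left unused.

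All 42 libraries entered 1 fit with a mean per group (edgeR 4.0.16, R 4.3.3, filterByExpr, TMM scaling, quasi-likelihood test, 28 residual degrees of freedom). The test was checked on simulated counts. P-values were adjusted by Benjamini and Hochberg's method over the 6521 genes tested, and calls needed an adjusted p under 0.05 and a 2-fold difference. CPM values and log2 differences were computed here, and the SE of a log2 difference is its size over the root of the F statistic. Summed levels were compared by exact permutation tests (SciPy 1.17.1). Intervals and limits on counts cover counting error only, and 3 counts stand for a count of 0. The total counts of the libraries set how well genes with few reads are measured, tRNA genes above all.

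The 35 gene lists and the rules were chosen with earlier results of these data known. Named genes were maf1, all members of the phosphate acquisition, polymerase III and mating-type lists, and up to 4 called members of each other list with the largest differences. Added to them were the 10 largest differences each way among genes with a symbol, at least 10 CPM and libraries that did not overlap, and the 5 largest each way of the difference in change. Names of antisense genes did not count as symbols. Alternatives were other scalings, no count filter, DESeq2 1.42.0, the groups compared alone, a replicate block, thinned counts, other thresholds and leaving out each library. Promoter motifs were not searched, as no genome of the files' build was used.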

Additional observations from a re-analysis of the deposited data

Results flagged for a closer look

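For 66 of the 102 named genes tested, the strain difference at 4 h differed from that at 0 h. The test was edgeR's of the difference in change (adjusted p under 0.05 and at least 2-fold). Of all genes tested, 30.0% passed it. The shares cannot be compared, as many named genes were picked by their difference at 4 h or by their difference in change. The values are log2 differences in change (deletion minus wild type), and the 4 h libraries enter them as well as the differences at 4 h.

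The deleted gene maf1 was at -3.37. Of the phosphate genes, pho1 was at -3.86, pho84 at -1.88, SPAC1039.02 at -3.14, SPBPB2B2.06c at -5.75 and tgp1 at 2.16. Of the polymerase III machinery, brf1 was at -2.63, rpc19 at -1.30, rpc37 at -1.40, rpc40 at -1.20, sfc3 at -1.09, sfc4 at 1.42 and tbp1 at 1.22. The tRNA genes SPBTRNAASN.01, SPBTRNAGLY.09, SPBTRNATHR.06 and SPCTRNAARG.10 were fitted at 9.54, 9.25, 8.24 and 11.52. All 4 had no count in the wild type at 4 h, so the size of these fitted values depends on how a count of 0 is handled.

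Of the genes of ribosomes and translation, rps1401 was at -4.61, rps2202 at -3.27, rpl44 at -2.51, rps2602 at -2.16, cpc2 at -1.89, rlp7 at -1.79, rpl301 at -1.55, tef101 at -1.49, tef102 at -1.49 and sks2 at -1.47. Of the genes of mating and meiosis, mfm2 was at -2.43, mam1 at -1.09, mam2 at 2.064, map2 at 3.66, map4 at -1.12, sxa1 at 1.52, spo6 at -2.27, mug14 at -1.96, mug27 at 1.99, mug95 at 2.59, mug147 at 5.35, mde6 at 5.09, omt3 at 3.63 and meu16 at -4.39.

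Of the stress and signalling genes, ddr48 was at 4.19, hsp16 at 4.44, hsp3101 at 2.22, hsp3105 at 1.42, hsp9 at 1.70, zym1 at 3.93, rds1 at -2.64, cgs1 at 2.55 and ecl3 at -4.12. Of the genes of sugar use and transport, inv1 was at 3.66, fbp1 at 7.76, gal10 at 4.61, ght1 at 1.92, ght3 at -2.71 and ptr2 at -3.95. The remaining genes were cmt2 at 8.27, atd1 at -4.09, ssd2 at 1.41, pfl7 at -2.57, cum1 at 3.01, wwm3 at 2.47, prl65 at 1.11, SPBPB10D8.01 at -2.53, SPBPB10D8.02c at -3.18 and SPBPB21E7.10 at 3.23.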

How the results depend on the processing

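The 149 higher and 371 lower genes at 4 h became 2186 and 2084 without a minimum fold, and 57 and 122 when edgeR's glmTreat tested for a difference above 2-fold. The 986 more positive and 968 more negative differences in change became 2201 and 2889 without a minimum fold. The other scalings, filters and fits gave 132 to 151 higher and 362 to 418 lower genes at 4 h. Leaving out 1 library at a time gave 133 to 165 higher and 344 to 388 lower genes, and 956 to 994 more positive and 937 to 991 more negative differences in change. Of the calls at 4 h, 102 of 149 higher and 260 of 371 lower were kept under all alternatives except glmTreat. Among the 102 named genes tested, 6 lost a call under some alternative scaling, filter, fit or left-out library (fio1, ght7, hsp3105, mei3, mfm3 and str3; glmTreat, which kept 179 of all 520 calls, is not counted here), and no direction turned. The call of hsp3105 was also lost with RLE size factors (0.99), TMM from protein-coding genes (0.96) and DESeq2 (0.99), and those of ght7, mei3, mfm3 and str3 with counts thinned to the smallest library. With the replicate number as a block, 151 genes were higher and 372 lower at 4 h, and 983 and 966 differed in change. The labels do not say whether the numbers pair the samples. Deviations of same-numbered libraries correlated at 0.03, -0.04 and 0.07, and the block changed no call of a named gene. Of the list counts, it moved that of cell wall genes from 1 to 2.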
